A study of Homo sapiens with 21 samples.

Results

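The report describes the response of 3 human myeloid leukaemia cell lines to shSYK_1, a short hairpin RNA against the tyrosine kinase SYK. The comparison used 15 of the 21 arrays of the series, chosen by their labels: 6 shSYK_1 arrays, 2 in each of MOLM-14, U937 and HL-60, and 9 arrays of the luciferase control hairpin shLuc, 3 in each line. The response was the difference between the shSYK_1 and shLuc means within a line, averaged over the 3 lines with equal weight. The other 6 arrays carried a second SYK hairpin, shSYK_2, and were used where the hairpins were compared.

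MOLM-14 came from an acute monocytic leukaemia and is known for a FLT3 gene with an internal tandem duplication. U937 has monocytic features and was first grown from a patient's histiocytic lymphoma. HL-60 cells resemble promyelocytes and mature in culture under differentiating agents. Per the labels, every group was selected with puromycin at 1 µg/ml starting 48 h post infection and harvested for RNA on day 5, so controls and SYK hairpin cells shared infection and selection. No untransduced cells were among the arrays used here. Each line is 1 cell line grown in culture, and the labels call the replicates separate transductions, so a p-value here reflects how far repeat transductions of the same 3 lines lay apart. By its title, the study asked how SYK regulates FLT3 in this leukaemia.

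SYK is a cytoplasmic tyrosine kinase of blood cells. Its paired SH2 domains bind phosphorylated tyrosine motifs (ITAMs) in receptors and in the adaptors FCER1G and TYROBP, which carry signals from Fc receptors, C-type lectins, TREM receptors and integrins. SRC family kinases phosphorylate those motifs, and active SYK passes the signal to adaptors, phospholipase C gamma, VAV proteins, PI3 kinase, CARD9 and the ERK and STAT pathways. In myeloid leukaemia SYK is known as a kinase that acts beside FLT3.

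The hairpins are shown by the target sequence the labels give, because they define the groups compared. Capitals mark the bases that pair with bases 2 to 8 of the guide strand, the seed, if the guide is the reverse complement of the whole target.
shSYK_1: gcagcagaacagaCATGTCAa
shSYK_2: gcaggccatcatcAGTCAGAa
shLuc: cctaaggttaagtCGCCCTCg
Each target was 21 bases long. The seeds were TGACATG for shSYK_1, TCTGACT for shSYK_2 and GAGGGCG for shLuc, and the SYK hairpins were identical at 10 of 21 positions. None of the 2370 mature human miRNAs of the RefSeq table carried any of these seeds (0 for each hairpin). The place of the targets in the SYK transcript was not analysed here.

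RNA was read on Affymetrix human expression arrays, on which several short probes form a probe set for a transcript, and each value below is a log2 intensity. A total of 12165 genes was tested, each through its brightest probe set. The median linear intensity of an array lay between 18.4 and 20.6, and with 2 or 3 arrays a group the number of arrays limits the precision. Over all genes, the log2 difference between replicates had an SD of 0.192 to 0.199 in the shSYK_1 groups and 0.167 to 0.192 in the shLuc groups, and of up to 0.294 in the series. That highest value belonged to the HL-60 shSYK_2 pair. One of that pair, replicate 1, has labels that conflict: its title and treatment label name shSYK_2 and its source name names shSYK_1. It was kept as shSYK_2 here, and for the gene NFU1, given below, it read like the other HL-60 shSYK_2 array. The 11 measured pan-myeloid markers averaged 7.54 to 9.09 on the shLuc arrays and 7.62 to 9.31 on the shSYK_1 arrays. The 5 marker lists of other cell types (red cell and platelet precursors, lymphocytes of the T, NK and B kinds, epithelium and stroma) averaged 3.01 to 3.68 and 3.12 to 3.73. RMA gives no detection call, so no gene is called absent. In bulk RNA from cultures, fewer cells of a kind and less RNA per cell cannot be told apart.

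SYK RNA was lower on every shSYK_1 array than on every shLuc array of its line. On the brighter of its probe sets (the gene lies on chromosome 9), SYK in MOLM-14 read 8.49, 8.42 and 8.44 with shLuc and 6.16 and 6.16 with shSYK_1. In U937 it read 8.66, 8.70 and 8.70 with shLuc and 7.02 and 6.97 with shSYK_1. In HL-60 it read 8.91, 9.05 and 9.004 with shLuc and 7.04 and 7.001 with shSYK_1. The groups did not overlap in any of the 3 lines, and the replicates lay close together. The change was -2.29, -1.68 and -1.97 in MOLM-14, U937 and HL-60, which left 20.5%, 31.1% and 25.5% of the shLuc intensity. Averaged over the lines the change in SYK was -1.98 (SE 0.0471, limma adjusted p = 5.01e-14), and the fall differed between the lines (adjusted p = 0.00571 by limma's F-test). The second SYK probe set changed by -1.84 on average (SE 0.0481).

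FLT3 (chromosome 13), the receptor for FLT3 ligand on early blood cells, fell in HL-60 and MOLM-14, and its fall in U937 was close to the threshold. In MOLM-14 FLT3 read 9.86, 10.07 and 9.91 with shLuc and 9.08 and 9.14 with shSYK_1. In HL-60 it read 7.11, 7.24 and 6.98 with shLuc and 6.14 and 6.27 with shSYK_1. In U937 it read 4.39, 4.17 and 4.89 with shLuc and 4.01 and 4.06 with shSYK_1, close to the median intensity of an array. The shSYK_1 arrays lay below the shLuc arrays in each line, but in U937 the gap to the lowest shLuc array was smaller than the spread of the shLuc arrays. The average change was -0.73 (SE 0.0838, limma adjusted p = 2.62e-06), with -0.84, -0.45 and -0.90 in MOLM-14, U937 and HL-60. The U937 call (limma adjusted p = 0.0441) was lost under 20 of 31 alternative settings, among them a fit on the 15 arrays alone (0.0696) and a fit without U937 shLuc replicate 3, where the change was -0.24 (0.144). A difference between the lines was not called by the F-test (adjusted p = 0.248, limma).

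MYC, a transcription factor that drives growth and ribosome genes, fell by a like amount in each line. It read 12.03, 12.12 and 12.02 with shLuc and 11.17 and 11.11 with shSYK_1 in MOLM-14. In U937 it read 12.39, 12.37 and 12.38 with shLuc and 11.61 and 11.65 with shSYK_1, and in HL-60 12.93, 12.71 and 12.87 with shLuc and 12.02 and 11.92 with shSYK_1. No shSYK_1 array reached the lowest shLuc array of its line. The average change was -0.85 (SE 0.0398, limma adjusted p = 6.51e-11), which corresponds to a 1.80-fold lower intensity. For the line values of -0.92, -0.75 and -0.87 the F-test called no difference (limma adjusted p = 0.452).

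**Figure D1:**
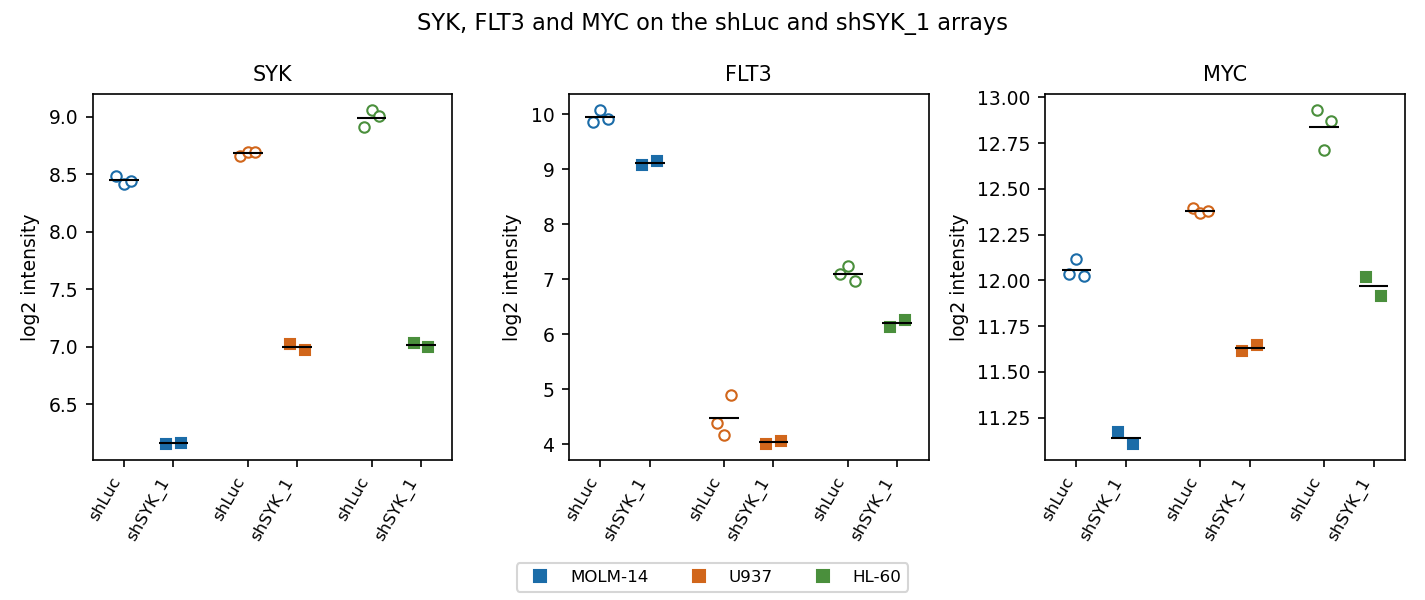
Log2 intensity of SYK, FLT3 and MYC on each of the 15 arrays, with open circles for shLuc, filled squares for shSYK_1, a horizontal line at each group mean and one colour per line. In every line and for each gene the shSYK_1 arrays lie below the shLuc arrays, and FLT3 is lowest in U937.

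Most of the genes that responded changed little. Of 12165 genes, 4325 were called in the average over the lines at a limma adjusted p below 0.05 (35.6% of genes tested), 2211 higher (18.2%) and 2114 lower (17.4%). The median size of a called change was 0.29 on the log2 scale. Called genes that changed by at least 0.5 numbered 761, with 448 higher and 313 lower. At a change of at least 1 there were 81 higher and 27 lower genes. The median change of all genes was -0.0015, which the normalisation between arrays holds near 0.

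Taken alone, MOLM-14 gave 3096 called genes (25.5%), U937 gave 2056 (16.9%) and HL-60 gave 2953 (24.3%). Without U937 shSYK_1 replicate 1 the U937 count was 1289. Genes called in the same direction in each of the 3 lines numbered 851 (7%), 429 of them higher (3.53%) and 422 lower (3.47%). For 1877 genes (15.4%) the shSYK_1 arrays lay outside the shLuc range of their line in all 3 lines and on the same side, above it for 951 (7.82%) and below it for 926 (7.61%). A further 2608 genes were called in exactly 1 line, and 144 were called in opposite directions in a pair of lines.

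The 12 genes that rose most in all 3 lines were CD36, CD86, S100A8, FCGR2B, TREM2, SGK1, LY96, CD48, MYOF, S100A9, GLIPR1 and ITGAM. CD36, a scavenger receptor of monocytes and macrophages, rose most, by 2.77 on average (SE 0.0972, limma adjusted p = 2.31e-12), a 6.81-fold higher intensity. In U937 CD36 went from 3.90, 3.93 and 3.31 with shLuc to 7.41 and 7.004 with shSYK_1, and in MOLM-14 from 6.19, 5.84 and 6.08 to 8.36 and 8.17. In HL-60 it went from 3.51, 3.79 and 3.85 to 6.39 and 6.21. All 6 shSYK_1 arrays stood more than a log2 unit above the shLuc arrays of their line.

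The calcium-binding alarmins S100A8 and S100A9, which form a heterodimer in neutrophils and monocytes, rose together. S100A8 in U937 read 4.12, 3.71 and 3.97 with shLuc and 7.21 and 7.22 with shSYK_1, and in MOLM-14 10.06, 9.97 and 10.10 against 11.997 and 11.83. In HL-60, where its shLuc signal was already near the top of the scale, it read 12.39, 12.36 and 12.33 against 13.16 and 13.09. Its line changes of 1.87, 3.28 and 0.76 in MOLM-14, U937 and HL-60 differed by the F-test (limma adjusted p = 2.03e-07). S100A9 changed by 1.84 on average, with 1.95, 2.48 and 1.11 in the same order of lines (limma adjusted p = 9.29e-12 for the average).

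The other genes of this group had rises of 1.73 to 1.98. CD86, a co-stimulatory ligand for T cells, rose by 1.98 (SE 0.0938), and CD48, a ligand of the CD244 receptor, by 1.90 (SE 0.0469). CD48 read 5.10, 5.20 and 5.11 with shLuc and 7.56 and 7.74 with shSYK_1 in MOLM-14, 6.69, 6.81 and 6.74 against 8.94 and 8.70 in U937, and 8.15, 8.09 and 8.10 against 9.24 and 9.23 in HL-60, without overlap in any line. TREM2, a lipid receptor that signals through TYROBP, rose by 1.96, and FCGR2B, the inhibitory Fc gamma receptor, by 1.96. The probe set of FCGR2B can also bind transcripts of its near-identical relatives, so its assignment is uncertain. LY96, the co-receptor of TLR4, rose by 1.95 and ITGAM, the alpha chain of the integrin Mac-1, by 1.73. The kinase SGK1 rose by 1.95, the membrane repair protein MYOF by 1.90 and GLIPR1 by 1.82. The limma adjusted p of these 9 genes lay between 5.01e-14 and 2.65e-09.

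The largest falls in all 3 lines, after SYK, began with MLC1. MLC1, a membrane protein best known from astrocytes, fell by 1.68 on the log2 scale, to 6.53 and 6.48 in MOLM-14 from 8.15, 8.03 and 8.09. NFU1, which builds iron-sulfur clusters in mitochondria, fell by 1.56, and for its line values of -1.61, -1.44 and -1.64 the F-test called no difference (limma adjusted p = 0.288). NFU1 read 8.21, 8.27 and 8.14 with shLuc and 6.60 and 6.55 with shSYK_1 in HL-60, and no array of one group reached the other in any line. MFF, a receptor for the mitochondrial fission machinery, fell by 1.49, and UROS, an enzyme of heme synthesis, by 1.32. The chromatin factor JADE3 fell by 1.43, the splicing-associated CD2BP2 by 1.29, and RFC5, which helps load the sliding clamp onto DNA, by 1.25. MAP4K4, a kinase upstream of JNK, fell by 1.24, the mitochondrial serine transporter SFXN1 by 1.22, the zinc finger protein PLAGL1 by 1.21 and the GABA-degrading enzyme ALDH5A1 by 1.20. Of these 11 genes, the smallest limma adjusted p was 5.01e-14 (NFU1) and the largest 2.36e-09 (PLAGL1).

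**Figure D2:**
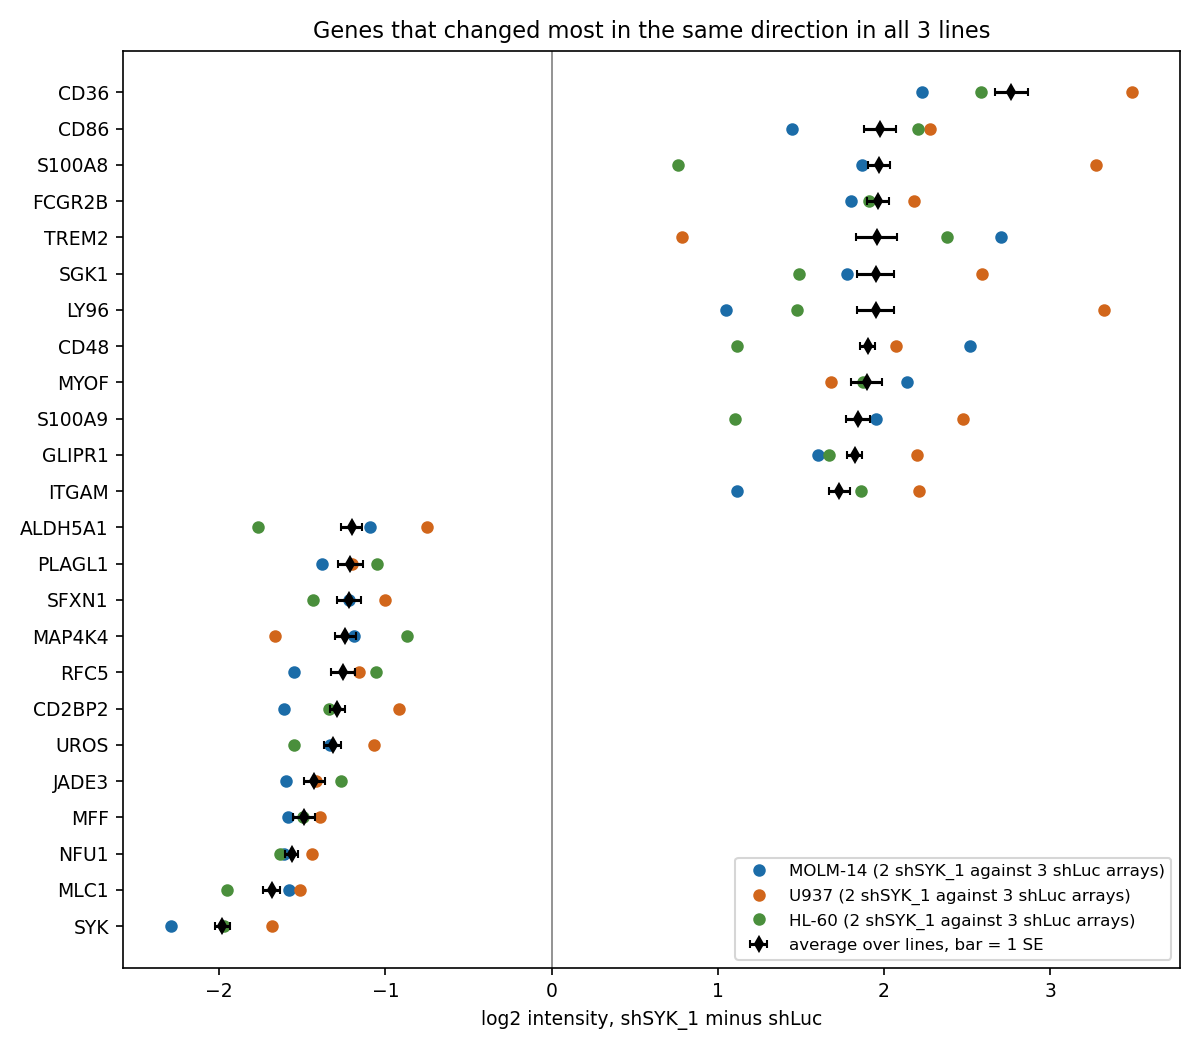
Change in log2 intensity (shSYK_1 minus shLuc) of the 12 genes that rose most and the 12 that fell most among genes called in the same direction in all 3 lines, with coloured points for single lines and diamonds with bars of 1 SE for the average. CD36 stands furthest to the right at 2.77 and SYK furthest to the left at -1.98, and the points of NFU1, MFF and JADE3 lie closer together than those of S100A8, TREM2 and LY96.

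The list of SYK receptors and adaptors rose, a list that also holds the inhibitory receptor FCGR2B. Of 15 measured members, 14 rose (93.3%, against 18.2% of all genes tested) and 0 fell, with a median change of 0.77. FCGR2B, ITGAM, TREM2, TREM1, LILRA2, FCGR2A, TYROBP, CLEC7A, FCER1G, CLEC5A, FCAR, ITGB2, FCGR1A and ITGB1 were the 14 that rose in the average. CLEC4E, a receptor for mycobacterial glycolipid, changed by 0.07 and was not called. Members called higher numbered 10 in MOLM-14 (13% of all genes), 13 in U937 (8.53%) and 13 in HL-60 (12.5%), and 9 rose in all 3 lines (3.53%). TYROBP, the ITAM adaptor of TREM receptors, read 7.14, 7.13 and 6.97 with shLuc and 8.25 and 8.19 with shSYK_1 in U937, 7.995, 7.94 and 8.12 against 8.80 and 8.83 in MOLM-14, and 9.56, 9.57 and 9.52 against 9.98 and 9.96 in HL-60. Its average change was 0.79 (SE 0.0460, limma adjusted p = 8.86e-10), and the groups did not overlap.

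FCER1G, the ITAM adaptor of Fc receptors, went opposite ways. In MOLM-14 it fell from 4.90, 4.99 and 4.89 to 4.32 and 4.17. In U937 it rose from 8.44, 8.53 and 8.51 to 9.91 and 9.90, and in HL-60 from 8.62, 8.57 and 8.52 to 9.77 and 9.89. The line changes of -0.68, 1.41 and 1.27 differed by the F-test (limma adjusted p = 4.95e-09), so its average of 0.67 describes no single line. The Fc alpha receptor FCAR had the same order of signs, with -0.51, 1.01 and 1.24, but its MOLM-14 change was not called (limma adjusted p = 0.0981). TREM1, an amplifier of inflammatory signals, rose in all 3 lines (1.67, 1.09 and 2.22, average limma adjusted p = 5.12e-08), and its MOLM-14 shSYK_1 arrays lay apart at 4.78 and 5.75.

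Among the SRC family kinases and the phosphatases that act on them, 6 of 13 measured members rose (46.2%, against 18.2% of all genes) and 0 fell (17.4% of all genes), with a median change of 0.10. FGR, a myeloid SRC kinase, rose by 0.75 (SE 0.0619), YES1 by 0.79 and LYN, which phosphorylates ITAMs in myeloid cells, by 0.43 (limma adjusted p = 9.73e-07). FGR read 7.78, 7.73 and 7.72 with shLuc and 9.03 and 9.09 with shSYK_1 in HL-60, clear of each other. CBLB, a ubiquitin ligase that limits receptor signalling, rose by 0.42, the CD45 phosphatase PTPRC by 0.35 and PTPN6 by 0.10. CSK, PTPN11, LCK, BLK, CBL, FYN and SRC were not called in the average.

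Of 21 measured effectors downstream of SYK, a count that includes SYK itself, 6 rose and 7 fell, with a median of -0.07. These are 28.6% and 33.3% of the list, against 18.2% and 17.4% of all genes. STAT3 rose by 0.39 (limma adjusted p = 2.15e-06), the kinase PRKCD by 0.36, the exchange factor VAV1 by 0.27, BCL10 by 0.25, CARD9 by 0.17 and the kinase PTK2B by 0.21. Beside SYK, the adaptor LAT2 fell by 0.39, phospholipase C gamma 2 (PLCG2) by 0.35, STAT5B by 0.43, the adaptor BLNK by 0.43, the exchange factor RASGRP2 by 0.28 and the kinase BTK by 0.15. PLCG2 read 8.71, 8.72 and 8.71 with shLuc and 8.27 and 8.19 with shSYK_1 in U937, and 8.83, 8.97 and 8.84 against 8.47 and 8.49 in MOLM-14. Those groups were separate, whereas in HL-60 one shSYK_1 array lay inside the shLuc range. BLNK fell in MOLM-14 alone (-1.13, limma adjusted p = 2.75e-05), and its line changes differed by the F-test (adjusted p = 0.00273, limma). With cell line as an additive block in place of separate group means, 8 of the 21 were called in place of 13. GAB2, LCP2, VAV2, VAV3, PIK3CD, PIK3R1, STAT5A and MALT1 were not called.

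Of 17 growth factor receptors and related genes, 2 rose and 4 fell, with a median of -0.01. The shares of 11.8% and 23.5% are near the 18.2% and 17.4% of all genes. CSF2RB, the shared beta chain of the GM-CSF, IL-3 and IL-5 receptors, fell in all 3 lines, with changes of -0.61, -0.76 and -0.31 across MOLM-14, U937 and HL-60 and an average of -0.56 (SE 0.0479, limma adjusted p = 9.18e-08). It read 7.23, 7.18 and 7.26 with shLuc and 6.48 and 6.45 with shSYK_1 in U937, 6.15, 5.98 and 6.24 against 5.57 and 5.45 in MOLM-14, and 7.65, 7.82 and 7.63 against 7.36 and 7.42 in HL-60. No array of one group reached the other. CSF2RA, the GM-CSF receptor's own alpha chain, rose instead, by 0.52 (limma adjusted p = 1.90e-05), and reached 1.003 in HL-60. FLT3, FGFR1 (-0.34) and IGF1R (-0.28) were the other genes that fell, and IL6R rose by 0.18. The FGFR1 call was lost when the probe sets of a gene were averaged (-0.06, limma adjusted p = 0.286). KIT, CSF1R, CSF3R, AXL, MERTK, TYRO3, MET, PDGFRB, INSR, IL3RA and the ligand FLT3LG were not called in the average.

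Known targets of STAT5 and of ERK, which act downstream of FLT3, were called at rates near the background. Among 16 STAT5 targets, 4 rose and 4 fell with a median of 0.01 (25% each way, against 18.2% and 17.4% of all genes). Cyclin D3 (CCND3) rose by 0.81 and BCL6 by 0.67. Cyclin D2 (CCND2) fell by 0.43, the kinase PIM2 by 0.60, ID1 by 0.75 and the feedback inhibitor SOCS2 by 0.41, and PIM1 (0.10), CISH (-0.11) and SOCS1 (-0.15) were not called. Among 24 immediate early and ERK feedback genes, 4 rose and 5 fell with a median of -0.08 (16.7% and 20.8%). The AP-1 subunit JUN rose from 4.55, 4.40 and 4.73 with shLuc to 6.34 and 6.15 with shSYK_1 in MOLM-14, and by 1.19 on average (SE 0.0564, limma adjusted p = 6.80e-11). Its partner FOS rose by 0.75 and DUSP6, a phosphatase that limits ERK, by 0.51. EGR1, an immediate early transcription factor, changed by -0.58 and was not called (limma adjusted p = 0.122), and its MOLM-14 replicates were far apart, at 9.53, 7.78 and 7.85 with shLuc and 8.27 and 6.38 with shSYK_1.

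MYC was the member of its own network that changed most. Of 14 measured network genes, 2 rose and 4 fell, with a median of -0.05 (14.3% and 28.6%, against 18.2% and 17.4% of all genes). Beside MYC, MYCBP fell by 0.34, the partner MAX by 0.14 and MXI1, a MAX partner that opposes MYC, by 0.10. MLX rose by 0.33 and MXD3 by 0.25 (limma adjusted p = 0.00109). MYCN, MYCL, MNT, MGA, MXD1, MXD4, MLXIP and MYCBP2 were not called in the average, and MYCL changed by 0.44, -0.45 and 0.01 in MOLM-14, U937 and HL-60, with the MOLM-14 and U937 changes called in opposite directions.

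Ribosome biogenesis genes and other known MYC targets fell. Of 29 measured members, 25 fell (86.2%, against 17.4% of all genes tested) and 0 rose, with a median of -0.27. ODC1, the first enzyme of polyamine synthesis, fell from 10.12, 10.07 and 10.18 to 9.43 and 9.57 in MOLM-14, from 10.38, 10.48 and 10.36 to 10.15 and 10.04 in U937 and from 10.85, 10.81 and 10.84 to 10.30 and 10.33 in HL-60. Its average was -0.48 (SE 0.0389, limma adjusted p = 4.28e-08), and the groups were separate in each line. UTP20, a component of the small subunit processome, changed by -0.45 (limma adjusted p = 7.98e-08), and MRTO4 and the H/ACA particle protein NHP2, both of ribosome assembly, by -0.37 and -0.39. NPM1 (-0.07), POLR1B (-0.18), EIF5A (-0.03) and LDHA (-0.01) were not called. The fall was present in each line by its median, with -0.26 in MOLM-14 (17 of 29 fell, 12.5% of all genes), -0.16 in U937 (9 fell and 1 rose, 8.37% and 8.53% of all genes) and -0.45 in HL-60 (27 fell, 11.8% of all genes).

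The promoters of these genes were searched because their members moved together. The window ran from 250 bases before to 50 after each RefSeq start on GRCh38.p14, and a gene was counted if any listed start of it held the motif on either strand. The E-box CACGTG, the motif that MYC and MAX bind, was in 13 of 25 members with a listed promoter (52.0%) and in 12 of the 21 members among them that fell. Of all 9711 tested genes with a promoter, 11.9% held it. UTP20 is shown as the member with the second smallest p, at chr12:101279855-101280154 on the plus strand, with the E-box in capitals. It starts 10 bases before the transcript start. A match describes the letters and shows no binding. A list of known targets can hold its motif more often than all genes do, whatever its response. The motif shares here and in the lists below therefore describe the lists and not the effect of shSYK_1.
UTP20 promoter: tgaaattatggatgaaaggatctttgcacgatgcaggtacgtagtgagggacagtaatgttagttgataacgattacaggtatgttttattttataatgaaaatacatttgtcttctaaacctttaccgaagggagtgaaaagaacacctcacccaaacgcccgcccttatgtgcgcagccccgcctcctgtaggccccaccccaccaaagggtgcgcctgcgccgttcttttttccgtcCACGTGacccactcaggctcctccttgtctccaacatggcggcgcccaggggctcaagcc

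Genes of DNA replication fell, and their line effects differed. Of 35 measured G1/S and replication genes, 24 fell (68.6%, against 17.4% of all genes) and 3 rose (8.57%, against 18.2%), with a median of -0.23 in the average. In MOLM-14 28 fell and 0 rose (12.5% and 13% of all genes), with a median of -0.49. In HL-60 19 fell and 2 rose (11.8% and 12.5% of all genes), with a median of -0.24. In U937 7 fell and 3 rose (8.37% and 8.53% of all genes), with a median of -0.03. The F-test between lines called 23 of the 35, beside 15.2% of all genes. GINS1, part of the replicative helicase, fell from 8.996, 8.90 and 8.99 to 8.15 and 8.24 in MOLM-14, from 9.40, 9.48 and 9.37 to 9.08 and 9.11 in U937 and from 8.94, 8.97 and 9.0003 to 8.19 and 8.19 in HL-60. The arrays were separate in each line, and the changes of -0.77, -0.32 and -0.78 differed by the F-test (limma adjusted p = 0.00212). MCM2, another helicase subunit, changed by -1.02, -0.37 and -0.57 across MOLM-14, U937 and HL-60, and thymidylate synthase (TYMS) by -0.89, -0.34 and -0.52. RFC5 fell by 1.25 and RPA2, which coats single-stranded DNA, by 0.76. PCNA, the sliding clamp, was not called in the average (0.02). Cyclin E2 (CCNE2) went the other way, with -0.04, 0.94 and 0.80, and thymidine kinase (TK1) and RRM2 also rose, by 0.18 and 0.14. With cell line as an additive block, 12 of the 35 were called in place of 27.

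The E2F site, searched as TTTCCCGC or TTTGGCGC on both strands, was in 16 of 30 replication genes with a promoter (53.3%) and in 12 of the 21 that fell, beside 4.16% of all genes. The GINS1 promoter lies at chr20:25407423-25407722 on the plus strand and carries the reverse complement of a site, in capitals, 6 bases after the start.
GINS1 promoter: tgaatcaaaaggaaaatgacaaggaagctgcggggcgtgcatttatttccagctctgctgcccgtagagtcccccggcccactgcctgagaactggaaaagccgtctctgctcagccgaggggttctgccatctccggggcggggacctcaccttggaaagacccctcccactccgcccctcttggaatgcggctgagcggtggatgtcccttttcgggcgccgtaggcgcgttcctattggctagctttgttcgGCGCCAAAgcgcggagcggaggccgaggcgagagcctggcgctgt

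Of 29 measured G2/M genes, 5 rose and 4 fell in the average, with a median of -0.05. The shares of 17.2% and 13.8% are near the 18.2% and 17.4% of all genes. In MOLM-14 16 fell and 1 rose (12.5% and 13% of all genes; median -0.28). In U937 6 rose and 0 fell (8.53% and 8.37% of all genes; median 0.11), and in HL-60 5 rose and 1 fell (12.5% and 11.8%; median 0.05). The F-test between lines called 17 of the 29, beside 15.2% of all genes. The motif TTTGAA, known as CHR, was in 15 of 24 members with a promoter (62.5%), beside 15.4% of all genes. It was in 3 of the 5 that rose and 3 of the 3 that fell. The proliferation antigen MKI67 rose in all 3 lines, by 0.26, 0.35 and 0.68, from 8.62, 8.64 and 8.63 with shLuc to 9.22 and 9.40 with shSYK_1 in HL-60. Its groups were separate in each line, narrowly in MOLM-14. The survivin gene BIRC5 fell by 0.24, the checkpoint gene MAD2L1 by 0.21 and the kinase CDK1 by 0.15. The calls of BIRC5, MAD2L1 and CDK1 were lost with cell line as an additive block (limma adjusted p = 0.0520, 0.116 and 0.314), where 1 of the 29 was called, and 5 were called with the replicate number as a block.

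Oxidative phosphorylation genes rose by small amounts. Of 40 measured members, 27 rose (67.5%, against 18.2% of all genes) and 1 fell (2.50%, against 17.4%), with a median of 0.16, and medians of 0.24 for MOLM-14, 0.12 for U937 and 0.09 for HL-60. NDUFA1 and NDUFB5 of complex I rose by 0.34 and 0.34, and SDHD of complex II by 0.35. NDUFA1 read 10.80, 10.70 and 10.73 with shLuc and 11.28 and 11.22 with shSYK_1 in MOLM-14. SDHA, the catalytic subunit of complex II, was the member that fell (-0.32, SE 0.0431, limma adjusted p = 1.44e-05). Among 18 glycolysis genes 5 rose and 3 fell, with a median of -0.01 (27.8% and 16.7%, against 18.2% and 17.4% of all genes). Hexokinase 1 (HK1) rose by 0.89, with 1.03 in MOLM-14, 0.23 in U937, which was not called, and 1.42 in HL-60. The glucose transporter SLC2A3 rose by 0.68, with -0.02 in MOLM-14, which was not called, 0.53 in U937 and 1.52 in HL-60. GAPDH (-0.01) was not called.

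The amino acid response genes driven by ATF4 separated the lines. Of 27 measured members, 22 fell and 1 rose in MOLM-14, with a median of -0.60 (12.5% and 13% of all genes). In U937 9 fell and 2 rose, with a median of -0.14 (8.37% and 8.53% of all genes), and in HL-60 8 rose and 2 fell, with a median of 0.13 (12.5% and 11.8% of all genes). The F-test between lines called 23 of the 27, beside 15.2% of all genes. In MOLM-14 asparagine synthetase (ASNS) read 9.68, 10.21 and 9.53 with shLuc and 8.62 and 8.95 with shSYK_1, and CHAC1, which degrades glutathione, 5.42, 6.07 and 5.54 against 3.84 and 3.98. In HL-60 CHAC1 rose from 3.22, 3.51 and 3.25 to 3.78 and 4.16, so its groups were separate in opposite directions. SLC7A5, an importer of large neutral amino acids, fell in all 3 lines (-1.31, -0.35 and -0.69), as did the mitochondrial folate enzyme MTHFD2 (-0.83, -0.30 and -0.27). SLC7A11, the cystine importer, rose in all 3 (0.56, 0.58 and 0.67, average limma adjusted p = 3.41e-08). In the average 16 fell (59.3%, against 17.4% of all genes) and 4 rose (14.8%, against 18.2%), with a median of -0.23. A fit with cell line as an additive block called 12 in place of 20.

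Redox and heme genes included strong rises. HMOX1, which degrades heme, rose in all 3 lines, from 4.64, 4.41 and 4.42 to 5.86 and 5.74 in MOLM-14, from 4.57, 4.76 and 5.32 to 6.48 and 6.47 in U937 and from 6.03, 5.93 and 6.25 to 7.97 and 7.99 in HL-60. The average was 1.61 (SE 0.0918, limma adjusted p = 7.04e-10), and each line's groups were separate. The quinone reductase NQO1 rose by 1.17 and biliverdin reductase B (BLVRB) by 1.13, most in HL-60 (2.18). KEAP1, which targets NRF2 for degradation, fell by 0.43, and NRF2 itself (NFE2L2) changed by 0.11 and was not called. Of 17 measured members of this list, 11 rose and 3 fell (64.7% and 17.6%, against 18.2% and 17.4% of all genes), with a median of 0.20 (9 called with the additive block in place of 14). The antioxidant response element, searched as TGAC, any 3 bases and GC on both strands, was in 4 of 14 members with a promoter (28.6%), beside 19.3% of all genes, in 2 of the 9 that rose and in 1 of the 3 that fell. Among 23 cholesterol and fatty acid genes, 5 rose and 6 fell (21.7% and 26.1%, against 18.2% and 17.4% of all genes), with INSIG1 at 0.52 and the desaturase FADS1 at -0.47.

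Genes of monocyte and macrophage maturation rose. Of 32 measured members, 25 rose (78.1%, against 18.2% of all genes) and 1 fell (3.12%, against 17.4%), with a median of 0.76. The medians were 0.57 for MOLM-14, 0.53 for U937 and 1.04 for HL-60, and 16 rose in all 3 lines (3.53% of all genes). ITGAM, known as CD11b, read 6.54, 6.53 and 6.59 with shLuc and 7.74 and 7.60 with shSYK_1 in MOLM-14, 5.35, 5.61 and 5.06 against 7.50 and 7.60 in U937, and 6.09, 6.11 and 6.11 against 7.998 and 7.94 in HL-60. Every shSYK_1 array was above every shLuc array of its line. LY86, the partner of the receptor CD180, rose by 1.23, the galectin LGALS3 by 1.16, the fractalkine receptor CX3CR1 by 1.19 and the transcription factor KLF4 by 0.92. Cathepsin S (CTSS) rose by 0.95, and the cytokine IL1B by 0.99, from 4.77, 4.77 and 4.90 to 6.49 and 6.44 in HL-60. The inflammasome sensor NLRP3 was the member that fell (-0.21). CSF1R, SIRPA, CCR2, VCAN, MSR1 and MRC1 were not called in the average.

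Of 24 measured neutrophil maturation genes, 15 rose (62.5%, against 18.2% of all genes) and 0 fell, with a median of 0.27. CYBB, the catalytic subunit of the NADPH oxidase, rose from 4.22, 3.99 and 3.86 to 6.71 and 6.65 in MOLM-14, from 6.01, 6.05 and 5.80 to 7.56 and 7.58 in U937 and from 10.19, 10.26 and 10.02 to 10.71 and 10.61 in HL-60. Its rise was larger where the shLuc level was lower, and the line changes differed by the F-test (limma adjusted p = 1.95e-07). The antimicrobial peptide CAMP rose by 1.06, the formyl peptide receptor FPR1 by 0.94 and S100A12 by 0.65. Haptoglobin (HP) rose by 1.26 on its brightest probe set, but changed by 0.01 when its probe sets were averaged (limma adjusted p = 0.881), and it has a close paralog. The secondary granule gene LCN2 (-0.05) and CEBPE (0.01), a factor of late granulocyte maturation, were not called in the average.

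In the list of primary granule and related genes of the promyelocyte, which also holds CALR, SERPINB1 and RNASE2, falls outnumbered rises. Of 13 measured members, 7 fell (53.8%, against 17.4% of all genes) and 2 rose (15.4%, against 18.2%), with a median of -0.44. In MOLM-14 5 fell and 3 rose (12.5% and 13% of all genes; median -0.22). In U937 3 fell and 1 rose (8.37% and 8.53% of all genes; median -0.09). In HL-60 7 fell and 1 rose (11.8% and 12.5% of all genes; median -0.45). The serine protease homologue AZU1 fell from 9.48, 9.55 and 9.52 to 8.45 and 8.47 in U937 and from 7.11, 6.94 and 6.90 to 6.23 and 6.13 in HL-60, with a smaller fall in MOLM-14, from 9.88, 9.79 and 9.84 to 9.55 and 9.53. The protease CTSG changed by -0.50, -0.30 and -0.99 across MOLM-14, U937 and HL-60, and its average was -0.59 (SE 0.0363, limma adjusted p = 1.52e-09). PRTN3 fell by 0.49, myeloperoxidase (MPO) by 0.44, the cystatin CST7 by 0.47 and the chaperone CALR by 0.46. SERPINB1 and RNASE2 rose by 0.27 and 0.24, and ELANE (0.07) was not called in the average.

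Among 23 measured lineage transcription factors, 8 rose and 6 fell (34.8% and 26.1%, against 18.2% and 17.4% of all genes). JUN, KLF6 (0.63), ID2 (0.50), LMO2 (0.46), CEBPB (0.34), FOS, KLF2 (0.33) and CEBPD (0.24) rose. IRF8, a factor of monocyte and dendritic cell fate, fell in all 3 lines, from 11.03, 11.07 and 11.05 to 10.39 and 10.41 in MOLM-14, from 9.67, 9.62 and 9.57 to 8.87 and 8.84 in U937 and from 8.56, 8.58 and 8.53 to 8.31 and 8.29 in HL-60. The groups were separate, and the average was -0.56 (SE 0.0369, limma adjusted p = 4.01e-09). MYB fell by 0.30, RUNX1 by 0.21, CEBPA by 0.17, GATA2 by 0.54 and ID1 by 0.75. SPI1, the PU.1 factor, changed by 0.16 and was not called. Of 11 measured genes of the HOXA and stem-like list, SOX4 (-0.44), MEIS1 (-0.37) and CDK6 (-0.32) fell and MN1 rose (0.15). These are 27.3% and 9.09% of the list, against 17.4% and 18.2% of all genes. MEIS1, a homeobox factor of leukaemia stem cells, fell in MOLM-14 (-0.81) and was near the bottom of the scale in HL-60. The list's count of 4 was 2 without MOLM-14 shSYK_1 replicate 2 or without U937 shSYK_1 replicate 2, where CDK6 (limma adjusted p = 0.0701 and 0.0733) and MN1 (0.0779 and 0.0821) lost their calls.

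Lysosomal genes rose as a group. Of 27 measured members, 24 rose (88.9%, against 18.2% of all genes) and 0 fell, with a median of 0.42, and medians of 0.40, 0.37 and 0.51 in MOLM-14, U937 and HL-60. The protective protein cathepsin A (CTSA) read 8.29, 8.19 and 8.29 with shLuc and 9.27 and 9.19 with shSYK_1 in MOLM-14, 9.06, 9.16 and 9.09 against 9.87 and 9.85 in U937, and 9.81, 9.77 and 9.78 against 10.63 and 10.62 in HL-60. The groups lay well apart, and for the changes of 0.98, 0.75 and 0.84 the F-test called no difference (limma adjusted p = 0.158). ATP6V0D1, a subunit of the proton pump that acidifies lysosomes, rose by 0.92 (SE 0.0470), cathepsin B (CTSB) by 0.69, the sialidase NEU1 by 0.69 and TFEB, a transcription factor of lysosome genes, by 0.48. LAMP1 (-0.06), LAMP2 (0.07) and TPP1 (0.08), all of the lysosome, were not called.

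CACGTG is also the core of the motif that TFEB binds, and it was in 6 of 18 lysosomal genes with a promoter (33.3%) and in 5 of the 16 that rose, beside the 11.9% of all genes given above. CTSA, the member with the smallest p, is shown at chr20:45891085-45891384 on the plus strand. Its 2 matches, in capitals, start 42 and 25 bases before the transcript start.
CTSA promoter: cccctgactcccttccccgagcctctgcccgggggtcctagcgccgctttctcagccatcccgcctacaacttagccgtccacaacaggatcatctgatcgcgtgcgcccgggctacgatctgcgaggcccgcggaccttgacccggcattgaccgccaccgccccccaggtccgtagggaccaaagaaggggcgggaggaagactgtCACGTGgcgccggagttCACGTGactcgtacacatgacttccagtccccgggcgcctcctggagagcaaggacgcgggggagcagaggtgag

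Interferon response genes rose in part. Of 38 measured members, 20 rose (52.6%, against 18.2% of all genes) and 5 fell (13.2%, against 17.4%), with a median of 0.20. IRF9, the DNA-binding subunit of the interferon-stimulated factor ISGF3, rose by 1.10, 1.04 and 1.06 in MOLM-14, U937 and HL-60 (average 1.06, SE 0.0650, limma adjusted p = 1.52e-09). IFI6 rose from 4.93, 4.90 and 4.86 to 6.39 and 6.40 in MOLM-14, from 7.97, 7.95 and 7.83 to 8.89 and 8.98 in U937 and from 5.12, 5.43 and 5.04 to 6.17 and 6.31 in HL-60, without overlap. ISG15, a ubiquitin-like modifier, rose by 0.60 and the RNA sensor IFIH1 by 0.71. USP18, which removes ISG15 from proteins, was among those that fell, with -0.81, -1.40 and 0.43, and RSAD2, IFITM1, IFITM2 and IFITM3 fell by 0.35, 0.27, 0.17 and 0.18. MX1, OAS2, IRF7, IRF1, IFI44 and IFI27 were not called in the average, and 16 of the list in place of 25 were called with cell line as an additive block. The interferon-stimulated response element, searched as GAAA, any 2 bases and GAAA on both strands, was in 20 of 29 members with a promoter (69.0%), beside 4.14% of all genes. It was in 9 of the 16 members that rose and in 3 of the 3 that fell. The IFI6 promoter, at chr1:27672143-27672442 on the minus strand, holds it 3 times, in capitals.
IFI6 promoter: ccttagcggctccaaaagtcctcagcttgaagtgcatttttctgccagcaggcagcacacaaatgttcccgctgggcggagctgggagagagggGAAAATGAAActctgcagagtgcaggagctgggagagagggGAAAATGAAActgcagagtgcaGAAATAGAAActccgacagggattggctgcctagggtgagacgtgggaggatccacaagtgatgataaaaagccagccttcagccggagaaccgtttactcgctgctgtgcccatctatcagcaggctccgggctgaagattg

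The antigen presentation genes changed little. Of 21 measured members, 6 rose (28.6%, against 18.2% of all genes) and 0 fell with a median of 0.03, and apart from CD86 the largest rise was that of HLA-DMA (0.81), a peptide loader of class II. HLA-DRA (-0.09) and CIITA (-0.08), the master regulator of class II, were not called. The count was 3 with arrays centred on their median, with either block and without MOLM-14 shSYK_1 replicate 1. Of 24 cytokine and chemokine genes, 12 rose and 3 fell, with a median of 0.13 (50% and 12.5%, against 18.2% and 17.4% of all genes). The receptor antagonist IL1RN rose by 0.93 and the chemokine CCL2 by 1.21, most in U937 (1.94). CXCL8, a neutrophil attractant, rose by 1.31 on average but was called in U937 alone, and its MOLM-14 replicates spread widely, at 7.01, 5.53 and 5.63 with shLuc and 7.64 and 6.24 with shSYK_1. TNF fell by 0.18 and CCL5 by 0.29, and IL6 (0.02) was not called.

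Of 26 measured BCL2 family members and caspases, regulators of cell death, 11 rose (42.3%, against 18.2% of all genes) and 5 fell (19.2%, near the 17.4% of all genes), with a median of 0.07. BCL2 itself, which blocks apoptosis, fell from 8.70, 8.91 and 8.68 to 7.92 and 8.10 in MOLM-14 and from 8.36, 8.30 and 8.23 to 7.51 and 7.38 in HL-60, with an average of -0.64 (SE 0.0555, limma adjusted p = 1.04e-07). BCL2A1, an anti-apoptotic relative, rose instead, from 6.66, 6.33 and 6.36 to 7.94 and 7.79 in MOLM-14, from 9.02, 9.02 and 9.03 to 10.10 and 10.25 in U937 and from 8.96, 8.95 and 8.94 to 10.03 and 9.93 in HL-60. Its groups were separate in each line, with an average change of 1.20. PMAIP1 (NOXA), a BH3-only gene, fell in all 3 lines, with changes of -1.35, -0.67 and -0.67 in MOLM-14, U937 and HL-60. CASP1, BNIP3L and CASP8 rose by 0.73, 0.74 and 0.63, and BCL2L1 (0.10) and BCL2L11 (0.005) were not called. Of 17 p53 targets measured, 8 rose (47.1%) and 1 fell (PMAIP1, 5.88%), with a median of 0.14. TIGAR rose by 0.71, ZMAT3 by 0.57 and CDKN1A by 0.31, and MDM2 (0.01) was not called.

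The 22 measured ribosomal protein genes, a set of the most abundant transcripts, gave 0 calls in the average or in any line at a limma adjusted p below 0.05, with changes between -0.06 and 0.18 and 0 below an unadjusted p of 0.05 in the average. The lists of other cell types also moved little. Of 9 erythroid and 11 megakaryocyte markers, limma called 0 in each list in the average (0 and 1 at an unadjusted p below 0.05). Among 14 T and NK cell markers CD2 rose (0.41) and NKG7 (-0.28) and CD7 (-0.13) fell, of 8 B cell markers FCER2 fell (-0.32), and of 15 epithelial and stromal markers PECAM1 (0.70), which myeloid cells also express, and PDGFRA (0.17) rose. The CD7 call held in 6 of 32 alternatives. Of 11 pan-myeloid markers 6 rose and 3 fell (54.5% and 27.3%, against 18.2% and 17.4% of all genes). LAPTM5, a lysosomal membrane protein of blood cells, fell by 0.72 in contrast to the lysosomal enzymes.

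**Figure D3:**
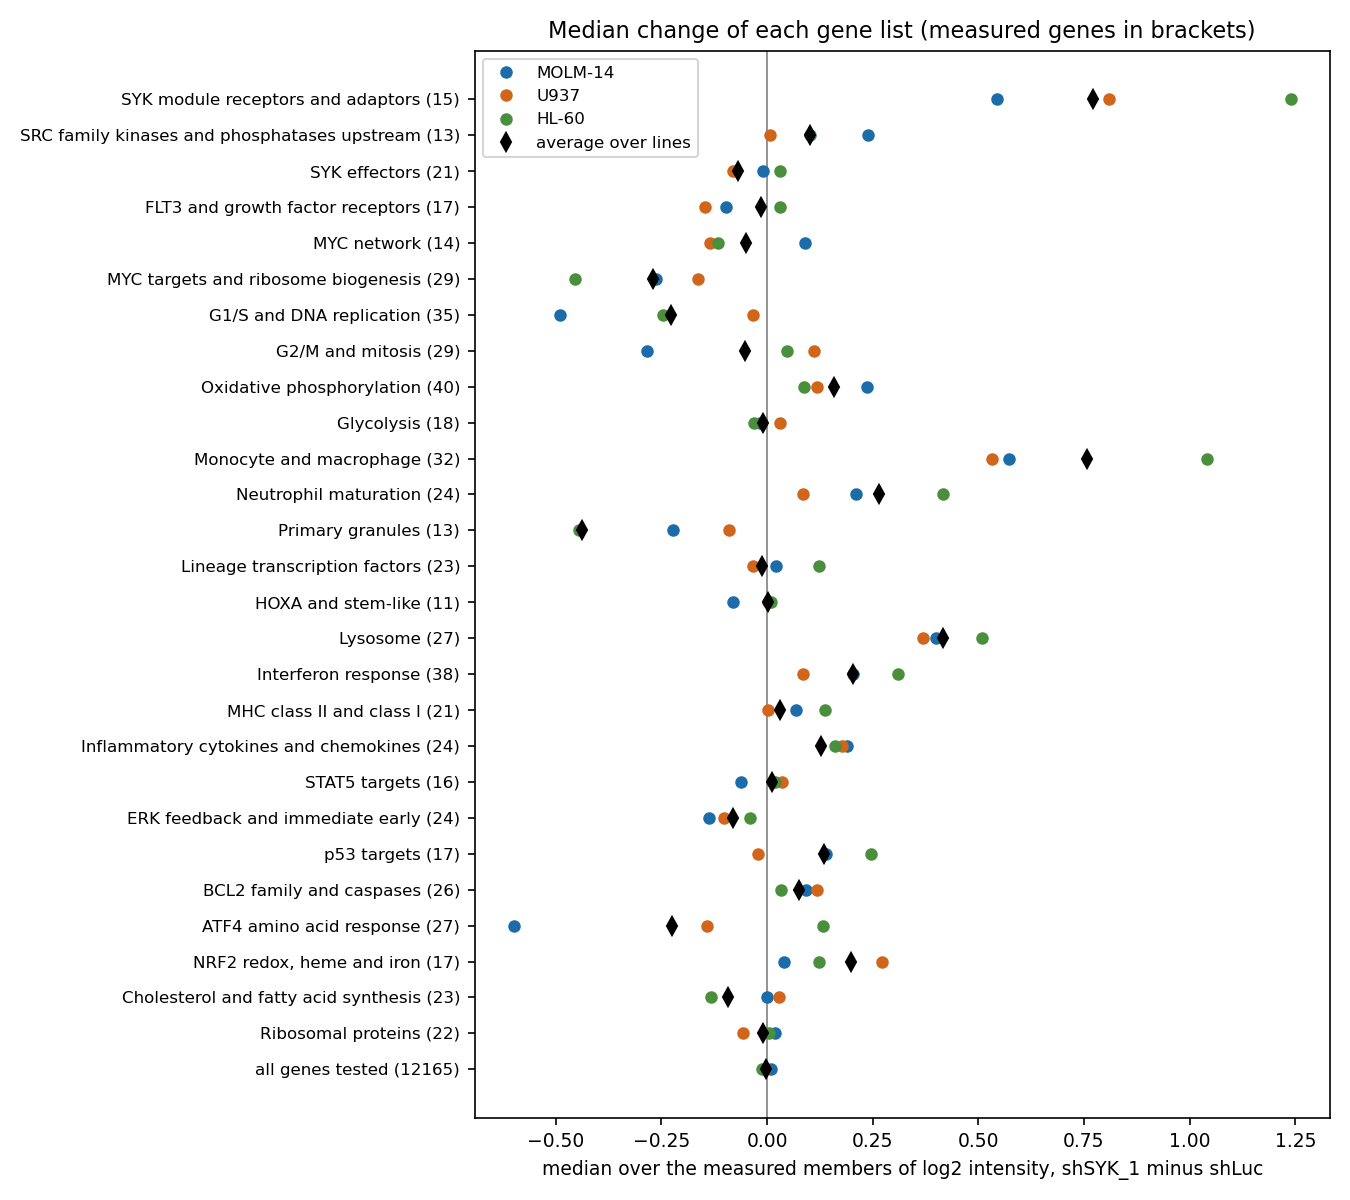
Median change in log2 intensity (shSYK_1 minus shLuc) over the measured members of each gene list, with coloured points for single lines and black diamonds for the average over lines. The receptors and adaptors of SYK (0.77) and the monocyte list (0.76) lie furthest right, primary granules (-0.44) furthest left among the averages, and the points of the ATF4 list run from -0.60 in MOLM-14 to 0.13 in HL-60.

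The difference of the shSYK_1 response between lines was called in a minority of genes. The F-test over the 3 line effects called 1846 genes (15.2%), 230 of them among the 851 called in the same direction in each line. With HL-60 shSYK_2 replicate 1 moved to the shSYK_1 group, 1176 genes were called. The 8 genes with the widest range of line effects were MS4A4A, OLR1, TDO2, IGLL1, CD14, ADAMDEC1, FAP and FAM13A, and each was near the bottom of the scale in at least 1 line, where an array fold can understate a change.

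MS4A4A, a tetraspan protein of macrophages, fell in MOLM-14 and rose in U937. It read 6.01, 5.73 and 6.22 with shLuc and 4.61 and 4.59 with shSYK_1 in MOLM-14, and 3.12, 2.71 and 3.62 against 6.78 and 6.996 in U937. In HL-60 it read 2.67, 2.53 and 2.54 against 2.49 and 2.29, which was not called (limma adjusted p = 0.567). The changes of -1.39, 3.74 and -0.19 had a range of 5.13 and differed by the F-test (limma adjusted p = 1.45e-08).

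OLR1, the receptor for oxidised LDL, and CD14, the co-receptor for lipopolysaccharide, rose in HL-60. OLR1 went from 3.12, 3.17 and 2.75 to 7.22 and 6.98 there and lay between 2.20 and 2.50 on all MOLM-14 and U937 arrays. CD14 went from 6.48, 6.60 and 6.56 to 9.48 and 9.51 in HL-60 and changed by 0.17 in MOLM-14 and 0.14 in U937. The limma adjusted p of the F-test was 9.12e-09 for OLR1 and 1.95e-07 for CD14. Both genes were near the bottom of the scale in MOLM-14 and U937.

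TDO2, the enzyme that opens the tryptophan ring, rose in U937 from 2.44, 2.31 and 2.37 to 6.44 and 6.29 and by 0.61 in MOLM-14. IGLL1, a surrogate light chain gene, fell in U937 from 6.60, 5.76 and 6.23 to 3.35 and 3.09, where no array of one group reached the other. ADAMDEC1, a metalloprotease-like protein of macrophages, rose in MOLM-14 from 3.17, 3.08 and 3.04 to 5.95 and 5.90 and in HL-60 by 1.75. The dipeptidyl peptidase FAP rose in MOLM-14 by 2.60 and in U937 by 1.21, and FAM13A in HL-60 by 2.64 and in U937 by 1.72. The F-test of FAM13A was not called with HL-60 shSYK_2 replicate 1 moved to the shSYK_1 group (limma adjusted p = 0.103).

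**Figure D4:**
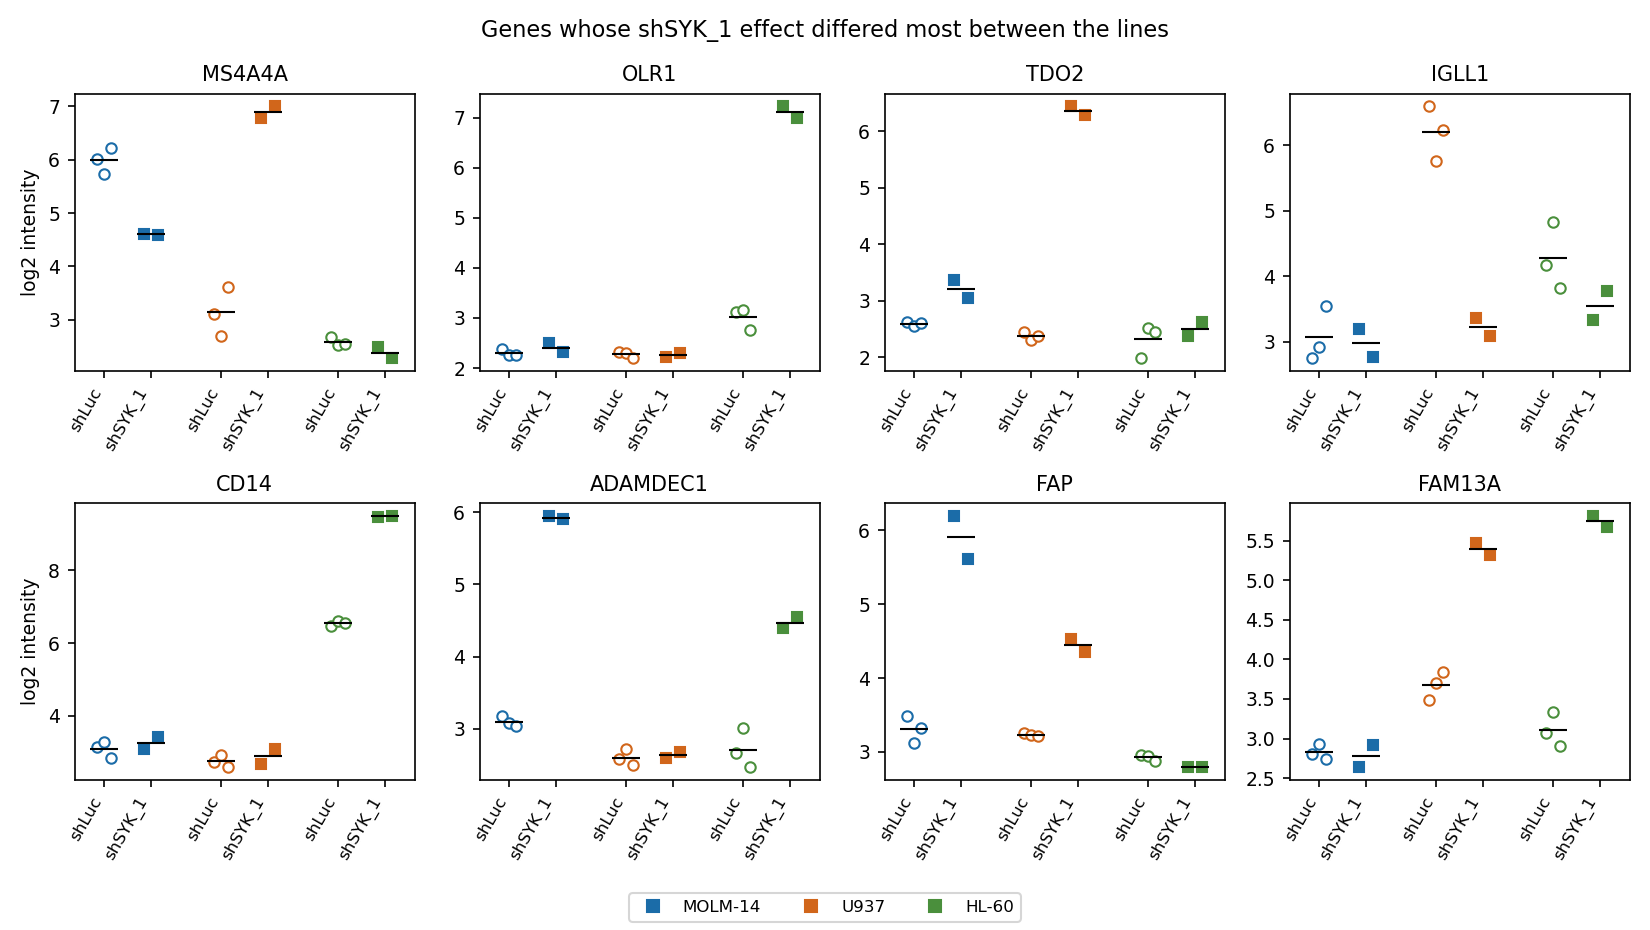
Log2 intensity on each of the 15 arrays of the 8 genes whose shSYK_1 effect had the widest range over the lines, with open circles for shLuc, filled squares for shSYK_1, a line at each group mean and one colour per line. MS4A4A goes down in MOLM-14 and up in U937, OLR1 and CD14 rise in HL-60, TDO2 rises most in U937 and ADAMDEC1 most in MOLM-14.

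The other SYK hairpin served to show where the shSYK_1 response differs from that of a second sequence against the same gene. The test was the difference between the shSYK_2 and shSYK_1 arrays, in which the shLuc arrays cancel. It called 4342 genes (35.7%), 2099 with shSYK_2 higher (17.3%) and 2243 with shSYK_2 lower (18.4%). Changes of both hairpins against shLuc are given side by side below, and they share the shLuc arrays. The hairpin difference also uses the same shSYK_1 arrays as the shSYK_1 response, with the opposite sign. An overlap between genes that shSYK_1 moved and genes that differed the other way is thus favoured in advance, for single genes and for lists. Against shLuc, shSYK_2 itself called 3682 genes (30.3%), 1896 higher (15.6%) and 1786 lower (14.7%).

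SYK was lower still with shSYK_2, with a difference of -0.45 from shSYK_1 (SE 0.0516, limma adjusted p = 2.94e-06), so the values that follow were measured at a lower SYK signal with shSYK_2. FLT3 was higher with shSYK_2 than with shSYK_1 by 0.69 (SE 0.0918, limma adjusted p = 1.40e-05). The shSYK_2 arrays of FLT3 read 10.08 and 10.09 in MOLM-14 and 7.15 and 7.001 in HL-60, within or next to the shLuc range of each line. MYC was higher by 0.57 with shSYK_2 (SE 0.0436, limma adjusted p = 3.29e-08). Against shLuc, MYC still fell with shSYK_2, by -0.28 on average (limma adjusted p = 4.66e-05). Its changes were -0.14, -0.14 and -0.56 in MOLM-14, U937 and HL-60. FLT3 changed by -0.04 on average in that comparison and was not called (limma adjusted p = 0.787).

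Among the 8 genes with the largest excess under shSYK_2, 7 were genes that shSYK_1 lowered (17.4% of all genes). The shared shSYK_1 arrays favour such a count. NFU1 changed by -1.56 with shSYK_1 and 0.21 with shSYK_2 against shLuc, MLC1 by -1.68 and -0.03, UROS by -1.32 and 0.25, and JADE3 by -1.43 and 0.03. DYNLT3, a dynein light chain, changed by -1.20 and 0.23, KRCC1 by -0.57 and 0.82, and ITM2C by -1.11 and 0.20. With shSYK_2 NFU1 read 8.73 and 8.65 in MOLM-14, 9.34 and 9.30 in U937 and 8.30 and 8.33 in HL-60, so the shSYK_1 arrays stood alone below both other groups. The HL-60 pair includes replicate 1, the array with conflicting labels, and the HL-60 shSYK_1 mean of NFU1 was 6.57. The histone gene H2AC6 was of the other kind, with 0.06 and 1.64, and its probe set can bind transcripts of other H2A genes.

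In the opposite direction stood S100A8, CD36, MED21, CCNE2, S100A9, CXCL8, CD86 and SNX10. For CD36 the shSYK_1 changes were 2.23, 3.49 and 2.58 (MOLM-14, U937, HL-60) and the shSYK_2 changes -1.27, 2.08 and 0.66, and the MOLM-14 shSYK_2 arrays of 4.72 and 4.81 lay below shLuc. For S100A8 they were 1.87, 3.28 and 0.76 against -1.69, 0.05 and 0.16, and for CD86 1.45, 2.28 and 2.20 against -1.16, 0.52 and 1.23. The Mediator subunit MED21 changed by 0.03 with shSYK_1, which was not called (limma adjusted p = 0.834), and by -2.25 with shSYK_2. CCNE2 rose by 0.57 with shSYK_1 and changed by -1.58 with shSYK_2, and the endosomal sorting protein SNX10 by 0.73 and -1.01.

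The 5 genes that follow were picked after their values were seen, because both hairpins moved them the same way. CD48 changed by 1.90 with shSYK_1 and 1.74 with shSYK_2, and RFC5 by -1.25 and -0.95. Both still differed between the hairpins, CD48 by -0.16 (limma adjusted p = 0.0185) and RFC5 by 0.31 (limma adjusted p = 0.00563). HMOX1 changed by 1.61 and 1.34, and the difference of -0.26 (SE 0.101) was not called (limma adjusted p = 0.0514). UTP20 changed by -0.45 and -0.49 (difference -0.05, SE 0.0414, limma adjusted p = 0.411), and MCM2 by -0.65 and -0.60 (difference 0.05, SE 0.0565, limma adjusted p = 0.516).

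The gene lists divided in the same comparison, in which 17.3% of all genes were higher and 18.4% lower with shSYK_2, with a median difference of 0.02. Against shLuc, shSYK_2 raised 15.6% and lowered 14.7% of all genes. Of 15 SYK receptors and adaptors, 12 were lower with shSYK_2 than with shSYK_1 and 0 higher (median difference -0.33), and 12 rose with shSYK_2 against shLuc. Of 32 monocyte genes, 23 were lower and 2 higher with shSYK_2 (median -0.39), and 21 rose with it against shLuc. Of 27 lysosomal genes 16 were lower and 2 higher, and 18 rose with shSYK_2. Of 29 MYC targets 19 were higher with shSYK_2 and 1 lower (median 0.19), and 13 fell with it against shLuc. All 29 measured mitotic genes were lower with shSYK_2 than with shSYK_1 (median -0.37), and 26 of 35 replication genes were lower and 1 higher (median -0.32). Against shLuc, shSYK_2 lowered 29 mitotic and 34 replication genes and raised 0 in either list. Of 40 oxidative phosphorylation genes 27 were lower with shSYK_2 than with shSYK_1 and 0 higher. Against shLuc, 5 of them rose and 12 fell with shSYK_2, whereas 27 rose and 1 fell with shSYK_1. Of 27 ATF4 genes 20 were higher with shSYK_2 than with shSYK_1 and 2 lower. Against shLuc, 10 of these rose and 2 fell with shSYK_2, whereas 4 rose and 16 fell with shSYK_1.

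**Figure D5:**
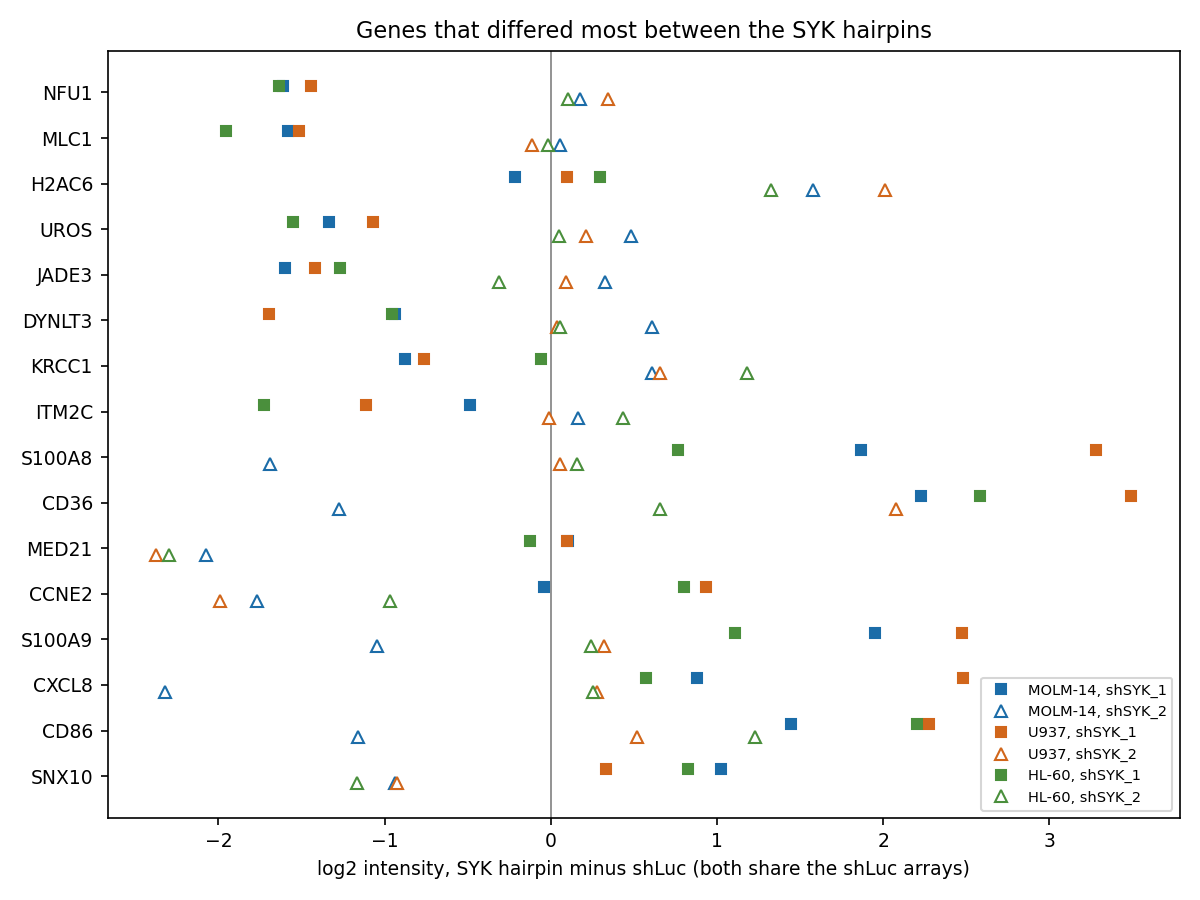
Change in log2 intensity against shLuc in each line for the 16 genes that differed most between the SYK hairpins, with filled squares for shSYK_1 and open triangles for shSYK_2, which share the shLuc arrays. The squares of NFU1, MLC1, UROS and JADE3 lie left of the triangles in every line, and for S100A8, CD36 and CD86 the MOLM-14 triangle lies left of 0 while the MOLM-14 square lies right of it.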

How the data were processed

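Arrays of MOLM-14, U937 and HL-60 cells were analysed from the linear intensity values the authors deposited, made with RMA per the submitters' processing notes, with a version not given in the sources used here. Their log2 values were fitted with limma 3.58.1 in R 4.3.3 as 9 group means over all 21 arrays. Of 22277 probe sets, 19724 with 1 gene symbol were kept, and the brightest of each gene represented it (12165 genes). Tests were two-sided, with Benjamini-Hochberg adjustment over all genes and an adjusted p below 0.05 as a call. Differences between lines were tested with limma's moderated F-test. The script was tested on simulated data.

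Named genes were the 12 largest rises and falls called in each line, 8 by range over lines, 8 each way by hairpin difference, 4 per list by p, and SYK, FLT3 and the MYC genes. Other list members named were picked after their values were seen. The members, the 33 lists (648 measured genes) and the comparisons were chosen with earlier results of these data known. Symbols and promoters came from RefSeq GRCh38.p14. Alternatives covered the arrays fitted, blocks, centring, an added offset of 16, leaving out the dimmest 40% of genes, averaged probe sets, priors, weights and the array with conflicting labels.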

Additional observations from a re-analysis of the deposited data

Results flagged for a closer look

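The genes below were picked by the ranking rules for named genes given above. Their shSYK_1 effects differed between MOLM-14, U937 and HL-60 by limma's F-test over the line differences, at an adjusted p below 0.05. Other list members named in the report, such as MYCL, CHAC1 and BLNK, were not covered here. Such a difference was called for 15.2% of all genes tested. The number in brackets is the range, the highest line effect minus the lowest, on the log2 scale. The called effects had opposite signs in at least 1 pair of lines for MS4A4A (5.13) and FCER1G (2.09). The effect in MOLM-14 was the largest rise for ADAMDEC1 (2.79), FAP (2.73), CYBB (2.15), TREM2 (1.92), CD48 (1.40), ALDOC (0.87), JUN (0.76), LMO2 (0.72) and LILRA2 (0.72). Also among the rises that were largest in MOLM-14 were CBLB (0.71), SNX10 (0.69), BCL6 (0.67), NDUFB5 (0.40) and NDUFA1 (0.27). The effect in MOLM-14 was the largest fall for SLC7A5 (0.96), MEIS1 (0.86), KRCC1 (0.82), CST7 (0.76), CD2BP2 (0.70), PMAIP1 (0.69), SYK (0.60), MAD2L1 (0.56) and MTHFD2 (0.55). Falls that were largest in MOLM-14 also included TYMS (0.55), FADS1 (0.48), CDK1 (0.46) and XPOT (0.42). The effect in U937 was the largest rise for TDO2 (3.80), S100A8 (2.52), LY96 (2.28), CXCL8 (1.91), CCL2 (1.47), S100A9 (1.37), CD36 (1.26), SGK1 (1.10) and ITGAM (1.10). Also among the rises that were largest in U937 were CCND3 (1.03), CCNE2 (0.97), CD86 (0.83), TYROBP (0.72), LY86 (0.64) and GLIPR1 (0.59). The effect in U937 was the largest fall for IGLL1 (2.89), MAP4K4 (0.80), AZU1 (0.76), DYNLT3 (0.76), IRF8 (0.51) and CSF2RB (0.45). The effect in HL-60 was the largest rise for OLR1 (4.10), CD14 (2.81), FAM13A (2.69), BLVRB (1.79), SLC2A3 (1.55), HP (1.28), ME1 (1.22), HK1 (1.19) and IL1B (1.09). Also among the rises that were largest in HL-60 were FGR (0.95), PECAM1 (0.87), BNIP3L (0.84), CSF2RA (0.75), IFIH1 (0.73), ID2 (0.71), TNFRSF10B (0.69), FCGR2A (0.62) and NQO1 (0.57). Also among the rises that were largest in HL-60 were CTSB (0.55) and STAT3 (0.40). The effect in HL-60 was the largest fall for ITM2C (1.24), ALDH5A1 (1.01), PIM2 (0.85), CTSG (0.68), CALR (0.63), UROS (0.48), GINS1 (0.46), NKG7 (0.43) and ACLY (0.35). Falls that were largest in HL-60 also included MRTO4 (0.34). FAM13A lost its call with HL-60 shSYK_2 replicate 1 moved to the shSYK_1 group (range 1.90, limma adjusted p = 0.103).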

How the results depend on the processing

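No named result reversed under any of the 32 alternatives, of which 21 left out 1 array each. Of 4826 values of 152 named results, 4761 kept their direction and their side of the threshold and 65 were no longer called. The 152 leave out effects within single lines, of which FLT3 in U937 lost its call under 20 of 31 alternatives. The calls lost more than once among the 152 belonged to CD7, PDGFRA, HLA-DMB, MN1, FCER2, CDK6, HLA-C and CDK1. The shSYK_1 response averaged over lines gave 3978 to 4586 genes without 1 array, 3240 with cell line as an additive block and 4555 with 16 added before log2. Leaving out 1 array gave 2251 to 3463 genes in MOLM-14, 2151 to 3274 in HL-60, and for the shSYK_1 response in U937 from 1289 (without U937 shSYK_1 replicate 1) to 2344. It gave 3905 to 4757 genes for shSYK_2 minus shSYK_1 averaged over lines and 1459 to 2245 for the difference of the shSYK_1 response between lines, which was 1176 with HL-60 shSYK_2 replicate 1 moved to the shSYK_1 group. That move also lowered the count for shSYK_2 minus shSYK_1, and it left 1 HL-60 shSYK_2 array. SYK with shSYK_1 stayed between -1.99 and -1.97 without 1 array. With arrays centred on their median, 1945 genes rose and 2428 fell (44.5% higher, against 51.1%). With the replicate number as a block within each line, the shSYK_1 response in U937 gave 1205 genes and the difference of the shSYK_1 response between lines 756. Over genes, the replicate 1 minus replicate 2 differences of shLuc and of shSYK_1 had correlations of 0.05, -0.04 and -0.07 in MOLM-14, U937 and HL-60. These values gave no sign of pairing by number but cannot exclude it, and shLuc replicate 3 was not used for them. The cause of these shifts was not tested. The number of arrays and signals near the bottom of the scale limit the precision.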
